A study of Mus musculus with 3 samples.

Results

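The 10 genes described here encode telomerase, the shelterin complex and Rif1, measured in mouse embryonic stem (ES) cells by total RNA-seq. They were taken by symbol from a fixed list: Tert, Terc and Dkc1 of telomerase, Terf1, Terf2, Terf2ip, Acd, Pot1a and Pot1b of shelterin, and Rif1. All 10 were found among 55536 genes. The cells were F121-9, a hybrid ES line with Cast and 129 parents, labelled p14, and all 3 libraries (biological replicates 1 to 3, each from 400 ng of RNA) form 1 group without treatment labels. The replicates come from 1 line, so the spread between them, and each p-value built on it, may be partly technical.

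Telomerase adds the telomeric repeat to chromosome ends: the reverse transcriptase Tert copies a short template in the RNA Terc, and dyskerin (Dkc1) binds the 3′ domain of Terc and keeps the RNA stable. Shelterin covers the repeats. Terf1 (TRF1) and Terf2 (TRF2) bind the duplex repeat, Terf2ip (RAP1) binds TRF2, and Acd (TPP1) tethers the single-strand binding POT1 proteins and recruits telomerase. Mice have a pair of POT1 genes, Pot1a and Pot1b, where humans have a single one. Rif1, known first as a telomere protein of yeast, acts in mammals mainly in replication timing and in the choice of double-strand break repair. ES cells are known to keep telomerase active.

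The sequence that gives telomerase its specificity was read from the GENCODE M21 transcript of Terc. The single Terc transcript is 423 nt long and lies on the minus strand of chr3:96414437-96414859 (mm10, misc_RNA, ENSMUSG00000064796.1). Its first 90 bases are shown to place the template, whose longest run that matches the repeated complement of TTAGGG is in capitals, and its last 30 bases to show the ACA box (capitals), the element that defines box H/ACA RNAs such as those bound by dyskerin. Both are written 5′ to 3′ with T for U.
Terc, first bases: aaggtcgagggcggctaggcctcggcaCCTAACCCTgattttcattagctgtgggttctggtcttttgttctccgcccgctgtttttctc
Terc, last bases: aagtgcacccggaactcggttctcACAacc
The run CCTAACCCT covers bases 28 to 36 of Terc (chr3:96414824-96414832), and its reverse complement is AGGGTTAGG. A search for these 9 letters on both strands of all 566 annotated misc_RNA transcripts found 1, or 0.177%, which is Terc itself. The ACA box stands 3 bases from the 3′ end. Positions here count in the annotated transcript, and the ends of the mature RNA were not examined.

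The other sequences that the results turn on are coding segments which some transcripts of a gene hold and others skip. For each one the transcript with the segment (capitals, with 15 bases on each side in lower case) is set above the junction of the transcript without it, where capitals start at the first base after the junction. Exon 4 of Terf1-203 (chr1:15815886-15815972, plus strand) is 87 nt long, or 29 codons, and is skipped in Terf1-201.
Terf1-203, with the exon: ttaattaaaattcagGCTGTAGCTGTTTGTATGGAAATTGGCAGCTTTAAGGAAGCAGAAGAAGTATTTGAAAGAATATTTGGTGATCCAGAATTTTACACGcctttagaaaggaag
Terf1-201, junction: ttaattaaaattcagCCTTTAGAAAGGAAG
Exon 32 of Rif1-201 (chr2:52116668-52116745, plus strand) has 78 nt, or 26 codons, and is skipped in Rif1-207. RIF1 is known to occur as long and short splice forms.
Rif1-201, with the exon: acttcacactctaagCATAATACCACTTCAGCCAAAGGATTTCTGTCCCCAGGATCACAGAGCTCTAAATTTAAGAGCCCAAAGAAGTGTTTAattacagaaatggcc
Rif1-207, junction: acttcacactctaagATTACAGAAATGGCC
In Terf2 (minus strand) the forms differ by the first 3 bases of an exon (chr8:107076997-107076999), the letters CAG, so that 1 codon is gained or lost.
Terf2-202, with the bases: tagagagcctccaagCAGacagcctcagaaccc
Terf2-204, junction: tagagagcctccaagACAGCCTCAGAACCC
A further pair of segments is not a multiple of 3. Tert-206 and Tert-202, annotated as nonsense-mediated decay transcripts (RNAs with an early stop codon that the cell tends to degrade), splice out 509 nt from within exon 2 of Tert-201 (chr13:73627639-73628147, plus strand). The removed stretch starts with GT and ends with AG, the letters of an intron's ends. Dkc1-210, also of the nonsense-mediated decay type, skips exons 8 and 9 of Dkc1-201, 275 nt in all (chrX:75100990-75102565, plus strand, intron included).
Tert-206, junction: agctgtgcctaccagGGGAGATGGCCAAGA
Dkc1-210, junction: ctgagagaagattagGTGAATGCAATCTGC

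Each library was quantified in 2 ways by the authors. The gene table and 1 of the transcript tables have RSEM's columns and are called RSEM-style. The other transcript table has kallisto's columns and is called kallisto-style. Levels are given as TPM, the transcript abundance unit scaled by transcript length and library, so that genes can be compared. Values are RSEM-style means ± SD of n = 3 libraries unless stated. The libraries held 9575747 to 10425623 estimated gene counts (RSEM-style). All 5 ES markers examined were expressed, at mean TPM of 106 to 505, while 1 of 7 fibroblast (feeder) markers passed, Pdgfrb at 1.53 TPM, with Col3a1 and Postn at 0 counts. Of 8 markers of differentiated lineages 3 passed, and the 8 ranged from 0 to 4.86 TPM. Replicate 1 stood apart from the others in counts: 1656 genes differed between the 3 libraries beyond counting noise, and 27 did so without replicate 1. Calls of the test of counting noise are therefore given with and without replicate 1.

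Telomerase subunits lay far apart in level, with the RNA-binding subunit high and the catalytic subunit low. A gene was called expressed where its TPM was at least 1 in all 3 libraries, which 23.6% of all genes were. By this rule 8 of the 10 members were expressed, and Pot1b and Terc were not. Dkc1 (ENSMUSG00000031403.14, chrX:75095854-75109777, plus strand) was the most abundant member, at 268.29, 281.89 and 294.58 TPM in replicates 1, 2 and 3, a mean of 281.6 ± 13.1 (SD, n = 3). It stood above 95.7% of expressed genes, and its lowest library lay above the highest library of every other member.

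Tert (ENSMUSG00000021611.9, chr13:73626911-73649843, plus strand) was at 4.10, 3.94 and 3.04 TPM, or 3.69 ± 0.571 (SD, n = 3), above 17.0% of expressed genes. These levels rest on 126, 114 and 89 estimated counts. The exact Poisson 95% intervals, which cover counting error only, ran from 3.42 to 4.88 TPM in replicate 1 and from 2.44 to 3.74 TPM in replicate 3, and these intervals overlap. Within each library Tert lay below Dkc1 by a log2 ratio of -6.23 ± 0.290 (SD, n = 3; log2 of TPM + 0.1), so that the Dkc1 level was 74.8-fold the Tert level. The ratio had this sign in 3 of 3 libraries. An exact permutation test that flips signs over the libraries (two-sided) gave p = 0.25, the smallest that 3 libraries allow, and the same holds for each of the 5 ratios tested here (adjusted p = 0.25).

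Terc was at the limit of detection. Its estimated counts were 0, 2 and 1 in replicates 1, 2 and 3, or 0, 1.24 and 0.60 TPM. The count of 0 in replicate 1 allows up to 3 counts, or 1.76 TPM, as a one-sided limit, and its exact two-sided Poisson 95% interval reaches 2.17 TPM. The 2 counts of replicate 2 have such an interval of 0.150 to 4.48 TPM, and the single count of replicate 3 an interval of 0.0152 to 3.34 TPM. The kallisto-style tables gave 3, 3 and 5 estimated counts, or 0.709, 0.691 and 1.12 TPM. Terc RNA is short and its mature form carries no poly(A) tail. Among other short noncoding RNAs, which were picked after their values were seen, Rpph1 (the RNA of ribonuclease P) was at 13.2 ± 1.68 TPM. Rn7sk (7SK RNA) was at 6.70, 6.04 and 0.97 TPM, and Rmrp was listed at 0 in all 3 libraries in the RSEM-style tables. The kallisto-style means were 12.9 ± 1.47 TPM for Rpph1, 6.43 ± 1.07 TPM for Rn7sk and 0.671 ± 1.16 TPM for Rmrp. The libraries were of total RNA. Neither the part of RNA length nor that of the missing poly(A) tail in the Terc count was tested.

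Shelterin was uneven, with Terf1 well above the other subunits. Terf1 (ENSMUSG00000025925.14, chr1:15805646-15844052, plus strand) reached 120.03, 125.77 and 117.27 TPM, a mean of 121.0 ± 4.34 (SD, n = 3), above 89.1% of expressed genes. Its paralog Terf2 (ENSMUSG00000031921.17, chr8:107069400-107096547, minus strand) was at 7.28, 4.93 and 5.83 TPM, or 6.01 ± 1.19 (SD, n = 3). Every Terf1 library lay above every Terf2 library. The log2 ratio of Terf1 to Terf2 was 4.33 ± 0.311 (SD, n = 3), a 20.1-fold difference in level, and 4.37 ± 0.152 in the kallisto-style tables.

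Terf2ip, the TRF2 partner (ENSMUSG00000033430.10, chr8:112011398-112020528, plus strand), was at 11.61, 11.32 and 10.29 TPM, or 11.1 ± 0.694 (SD, n = 3). It exceeded Terf2 in 3 of 3 libraries, by a log2 ratio of 0.89 ± 0.267 (SD, n = 3). Acd (ENSMUSG00000038000.10, chr8:105695860-105701102, minus strand) was at 21.55, 18.29 and 19.05 TPM, or 19.6 ± 1.71 (SD, n = 3). Its partner Pot1a (ENSMUSG00000029676.15, chr6:25743737-25809246, minus strand) was at 15.89, 16.40 and 16.14 TPM, or 16.1 ± 0.255 (SD, n = 3). Acd and Pot1a were the closest of the paired subunits, with a log2 ratio of 0.28 ± 0.144 (SD, n = 3) that was positive in 3 of 3 libraries.

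The POT1 paralogs differed in level. Pot1a restrains damage signalling at telomeres, and Pot1b is known for limiting resection of the 5′ strand. Pot1b (ENSMUSG00000024174.9, chr17:55651951-55712628, minus strand) was at 1.02, 0.71 and 1.31 TPM, or 1.01 ± 0.300 (SD, n = 3), from 13, 14 and 22 estimated counts. Its counting intervals spanned 0.543 to 1.74, 0.388 to 1.19 and 0.821 to 1.98 TPM, so these libraries overlap. The log2 ratio of Pot1a to Pot1b was 3.90 ± 0.415 (SD, n = 3), and 2.97 ± 0.300 in the kallisto-style tables, where Pot1b was at 1.62 ± 0.231 TPM.

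Rif1 (ENSMUSG00000036202.16, chr2:52072832-52122383, plus strand) was at 102.75, 96.24 and 98.88 TPM, or 99.3 ± 3.27 (SD, n = 3), just under Terf1 and above 86.6% of expressed genes. In the kallisto-style tables it was at 77.0 ± 8.18 TPM. The order by mean TPM was Dkc1, Terf1, Rif1, Acd, Pot1a, Terf2ip, Terf2, Tert, Pot1b and Terc. In 8 of the 9 neighbouring pairs the ranges over the 3 libraries did not overlap, the exception being Pot1b and Terc. The order was the same in the kallisto-style tables, and none of its neighbours overlapped there.

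**Figure D1:**
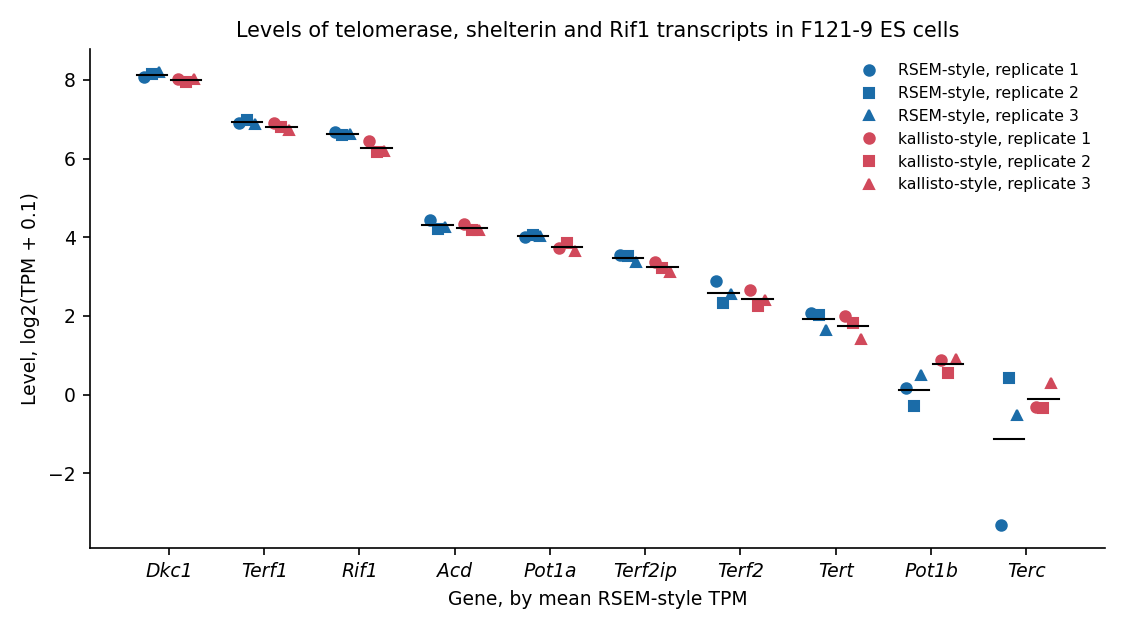
Level of each gene as log2(TPM + 0.1) (vertical axis), with genes ordered by mean RSEM-style TPM (horizontal axis). Points are libraries, colours the RSEM-style and kallisto-style tables, and black lines the means of the log2 values; Dkc1, Terf1 and Rif1 stand above the others, and Terc spreads from 0 to 1.24 TPM in the RSEM-style tables.

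Dkc1 was the only member whose counts differed between the libraries beyond counting noise. The test, a chi-square test of the counts against Poisson with Benjamini-Hochberg adjustment over all genes, called 1 of the 9 members with enough counts, and 12.4% of all 13391 genes tested, so the members' share was near the background. On the CPM scale, which divides counts by the scaled library total, Dkc1 was at 435, 489 and 500 in replicates 1, 2 and 3. Replicate 1 was the low library, with the highest 1.15-fold the lowest (adjusted p = 6.47e-10). Without replicate 1 the adjusted p was 0.897, and with libraries scaled by the ERCC spike-in RNAs it was 0.922. The ERCC scaling called Rif1 (adjusted p = 5.58e-12) and Tert (adjusted p = 0.0246) instead, and 34.7% of all genes.

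A stricter test asked whether a gene varied more than genes of its abundance (edgeR's quasi-likelihood dispersion against its trend). It called 0 of 9 members, with 0 at an unadjusted p under 0.05 and a smallest adjusted p of 0.987, beside 0.0373% of all genes (5 of 13391). The coefficient of variation of TPM was 4.67% for Dkc1, 3.58% for Terf1, 3.30% for Rif1, 1.58% for Pot1a and 6.26% for Terf2ip, below the median of 8.39% over expressed genes. It was above that median for Acd (8.69%), Terf2 (19.7%), Tert (15.5%) and Pot1b (29.6%). The median is not matched for abundance. Mean counts per library were 246 for Acd, 96.3 for Terf2, 110 for Tert and 16.3 for Pot1b. For the members below the median they were 277 or more. The part of count depth in this split was not tested.

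Transcripts that hold and skip the same coding segment were found together in 5 of the members. For the 87-nt exon of Terf1 printed above, transcripts with the exon made up 67.8%, 62.7% and 62.4% of the RSEM-style TPM in replicates 1, 2 and 3, or 64.3% ± 3.08 (SD, n = 3). The kallisto-style tables gave 50.5%, 50.4% and 49.4%, and the ranges of the tables did not overlap. The noncoding Terf1-202 carries much of the exon: among the coding transcripts alone, Terf1-203 held 36.2% ± 3.08 (SD, n = 3) against Terf1-201 in the RSEM-style and 13.9% ± 1.19 in the kallisto-style tables. Both tables thus placed most coding Terf1 RNA in the form without the exon.

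For the 78-nt exon of Rif1 the transcripts with it made up 66.7%, 62.3% and 68.5% of the RSEM-style TPM, or 65.9% ± 3.21 (SD, n = 3). The kallisto-style value was higher, at 79.0% ± 2.97, and in both tables the form with the exon was the larger in every library. The annotated models of Rif1-207 and Rif1-204 are incomplete at an end, so these shares compare transcripts of unequal length.

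The CAG of Terf2 was held by 76.0%, 48.4% and 62.3% of its RSEM-style TPM, or 62.2% ± 13.8 (SD, n = 3), from 82.0 to 114 estimated counts per library. These shares are not of coding transcripts alone. The transcripts with the CAG include Terf2-206, a retained-intron transcript, at 23.2%, 5.26% and 9.78% of the RSEM-style TPM of Terf2. Those without it include Terf2-207, of the nonsense-mediated decay type, at 5.22%, 8.10% and 25.9%. In the RSEM-style tables the libraries lay on both sides of an even split. The kallisto-style tables gave 66.3%, 53.9% and 54.1%, or 58.1% ± 7.12, and there the form with the CAG was the larger in all 3 libraries.

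In Tert, transcripts that keep the 509-nt segment made up 90.8%, 92.1% and 69.4% of the RSEM-style TPM, or 84.1% ± 12.7 (SD, n = 3). Replicate 3 was the low library. The kallisto-style tables gave 93.1%, 88.2% and 83.7%, a narrower range in which replicate 3 was again lowest. Both tables count the same libraries, and the skipping form rests on few counts. In the RSEM-style tables it was Tert-206 alone, at a mean of 14.3 estimated counts per library. In the kallisto-style tables it was Tert-202 in replicate 1 and Tert-206 in replicates 2 and 3. Dkc1 transcripts with exons 8 and 9 were at 92.5% ± 1.06 (SD, n = 3) of the RSEM-style TPM and 72.8% ± 2.05 of the kallisto-style TPM. The difference between the tables was far larger than the spread between libraries, and the skipping form Dkc1-210 is a 657-nt model that is incomplete at an end.

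**Figure D2:**
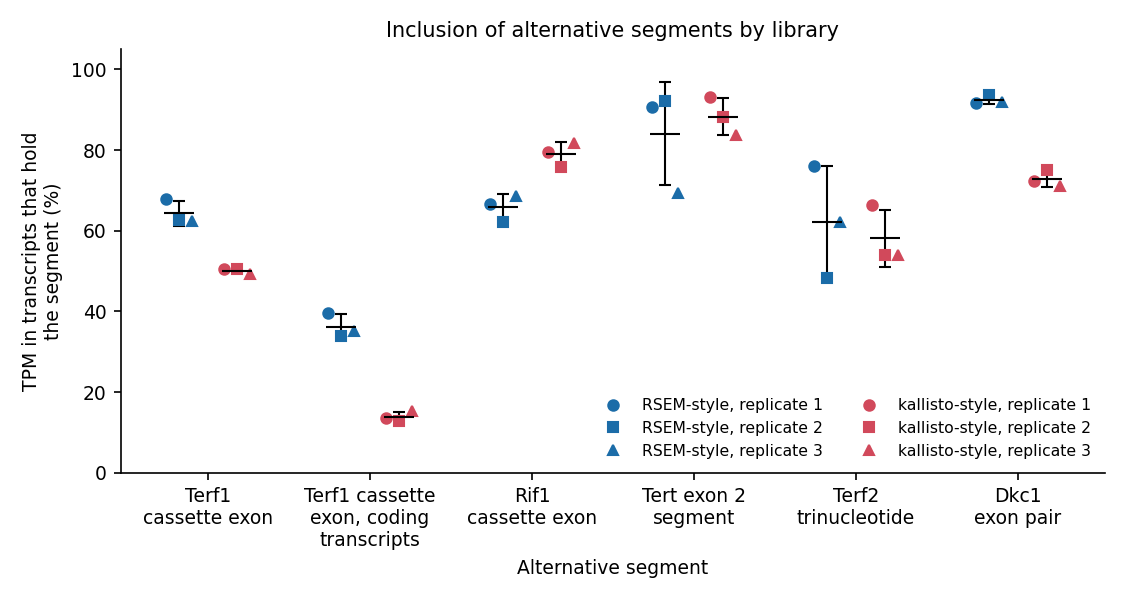
Share of TPM in transcripts that hold an alternative segment (vertical axis, percent) for each segment (horizontal axis), counting only transcripts that span it. Points are libraries, black marks and bars the mean and SD of 3 libraries; the tables are separate for Terf1, Rif1 and Dkc1 and overlap for Tert and Terf2.

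Most members were carried mainly by coding transcripts, but Acd was not. The transcript with the highest mean share was the same in both tables for 8 of 10 members, the exceptions being Terf1 and Pot1b. Terc is among the 8 but has only 1 annotated transcript, so it could not differ. Terf2ip-201 held 98.3% ± 2.10 (SD, n = 3), Pot1a-203 89.2% ± 3.86, Dkc1-201 82.9% ± 0.967 and Tert-201 80.2% ± 12.3 of their genes in the RSEM-style tables. Rif1-201 held 51.8% ± 1.48 and Rif1-207 29.0% ± 3.00. Terf2 was spread over several transcripts, led by Terf2-203 at 30.5% ± 6.68 and Terf2-204 at 24.7% ± 16.6. Terf1 was led by Terf1-202 (43.4% ± 2.39) in the RSEM-style and by Terf1-201 (49.9% ± 0.626) in the kallisto-style tables. Pot1b was led by Pot1b-201 (36.7% ± 23.7) and Pot1b-203 (46.8% ± 10.5) in these tables, on few counts. The second transcript by RSEM-style share was Dkc1-210 (6.76% ± 0.949) in Dkc1, Tert-206 (15.9% ± 12.7) in Tert, Pot1a-208 (7.67% ± 3.38) in Pot1a and Pot1b-205 (25.6% ± 23.3) in Pot1b. In Terf2ip it was the retained-intron transcript Terf2ip-202 (1.70% ± 2.10).

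Acd was led by Acd-204, a nonsense-mediated decay transcript, at 38.7% ± 7.31 (SD, n = 3). Its single coding transcript, Acd-201, held 28.4%, 34.1% and 24.1% of the RSEM-style TPM in replicates 1, 2 and 3, or 28.8% ± 5.00. The kallisto-style tables gave 13.2% ± 2.50. Nonsense-mediated decay transcripts of Acd held 62.1% ± 12.0 and 79.2% ± 6.10 in these tables. The median coding share over the 9 members other than Terc was 80.2%, and Acd had the lowest coding share of the 9 in both tables. Exons of Acd share 1208 of their 3625 bases with Carmil2, on the opposite strand (6.03 ± 0.942 TPM), and the strand setting of the counting is not given in the sources used here, so the level of Acd and its transcript shares are uncertain. Dkc1 shares 45 exon bases with Mpp1 on the opposite strand. Terf2ip shares 108 of its 4958 exon bases with Gm6793, also on the opposite strand (0.403 ± 0.300 TPM).

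**Figure D3:**
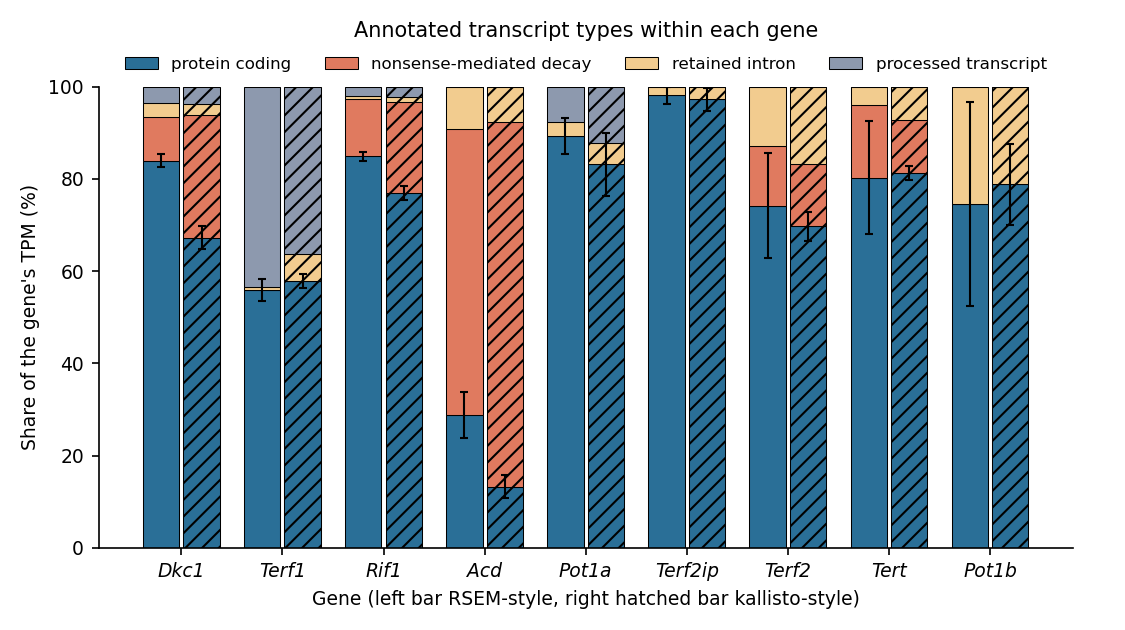
Mean share of each gene's TPM (vertical axis, percent) by annotated transcript type for the 9 members other than Terc (horizontal axis), with RSEM-style bars on the left and hatched kallisto-style bars on the right. Error bars are the SD of the protein-coding share over 3 libraries, drawn no further than 100%; Acd has the lowest coding share in both tables.

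A test of the tables against each other within each library found 5 member transcripts that differed, of 60 annotated and 27 tested. The test was limma on the difference of log2(TPM + 1), which understates differences of low transcripts, and a call needed an adjusted p under 0.05 and a difference of at least 1. Of these, 2 were higher in the kallisto-style tables, as were 12.1% of all 28903 transcripts tested. Dkc1-210 was higher there by 1.68 ± 0.059 (SE; adjusted p = 0.000896), at 62.8 ± 6.53 against 19.0 ± 2.72 TPM. Terf1-204, a retained-intron transcript, was higher by 2.05 ± 0.137 (SE; adjusted p = 0.00286).

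The other 3 were higher in the RSEM-style tables, as were 6.78% of all transcripts tested. Rif1-203 differed by -1.49 ± 0.139 (SE; adjusted p = 0.00565), kallisto-style minus RSEM-style. Terf1-203, the coding form with the 87-nt exon, differed by -1.35 ± 0.074 (SE; adjusted p = 0.00198), at 9.02 ± 0.756 against 24.4 ± 0.866 TPM. Rif1-207, which skips the 78-nt exon, differed by -1.16 ± 0.067 (SE; adjusted p = 0.00219). Dkc1-210, Terf1-203 and Rif1-207 are among the transcripts on which the segment shares above rest.

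**Figure D4:**
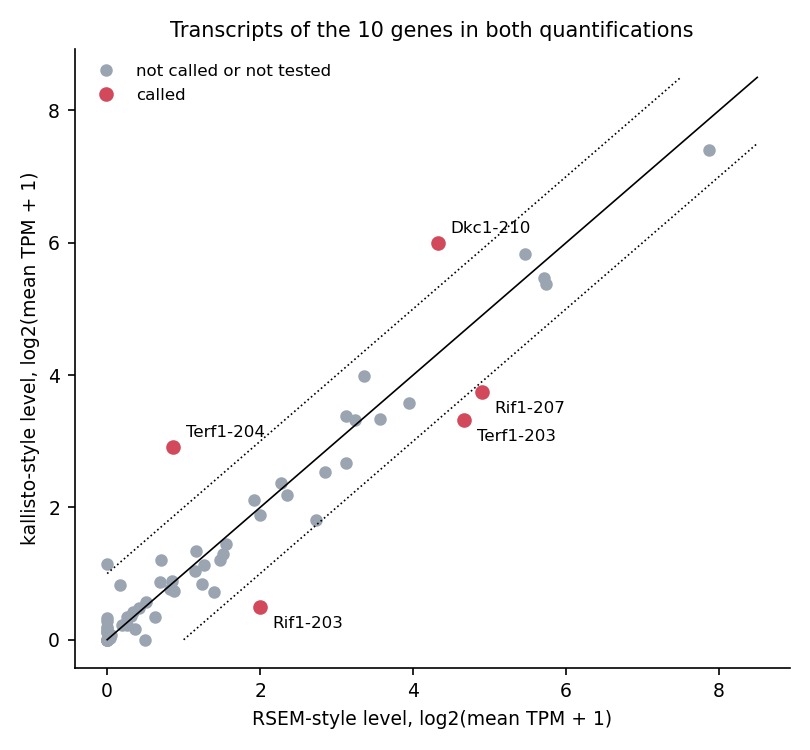
Mean level of the 60 transcripts of the 10 genes in the RSEM-style (horizontal axis) and kallisto-style tables (vertical axis), both as log2(mean TPM + 1). The solid line marks equal levels, the dotted lines a difference of 1, and the 5 named points in red are the transcripts called.

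Of 35 other telomere genes listed by role, 32 were expressed, beside the 23.6% of all genes. The test of counting noise called 4 of the 32 tested, or 12.5%, near the 12.4% of all genes: Nhp2, Fen1, Atrx and Tnks. Without replicate 1 it called 0 of 32, beside 27 of 13489 genes in all. The adjusted p was then 0.416 for Nhp2, 1.00 for Fen1, 0.989 for Atrx and 0.998 for Tnks. Nhp2 was also not called without replicate 2 (adjusted p = 0.941), and ERCC scaling called 14 of 32 but not Fen1 (adjusted p = 0.886). The dispersion test called 0 of 32, with 2 (Atrx and Zscan4f) at an unadjusted p under 0.05. Tinf2 (TIN2), the shelterin hub that joins TRF1, TRF2 and TPP1, was at 44.13, 34.57 and 36.82 TPM, or 38.5 ± 5.00 (SD, n = 3), between Rif1 and Acd in the RSEM-style tables. In the kallisto-style tables Tinf2 was at 79.2 ± 11.1 TPM, beside Rif1 at 77.0 ± 8.18 TPM, and the 435-nt Tinf2-204 took 63.6% of it against 11.4% in the RSEM-style tables.

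All 14 genes of telomerase assembly and control were expressed. In the RSEM-style tables they ranged from Nhp2, a partner of dyskerin in box H/ACA particles, at 449 ± 14.8 TPM (SD, n = 3), to Hmbox1, a telomere repeat binding protein, at 6.75 ± 0.526 TPM. In the CST complex, which binds single-stranded telomeric DNA and promotes fill-in by polymerase alpha, Ctc1 was highest at 71.7 ± 4.11 TPM and Ten1 lowest at 13.8 ± 3.30 TPM. Among replication and processing genes Fen1, the flap endonuclease, was highest at 151 ± 6.90 TPM, and the helicase gene Wrn lowest at 4.41 ± 0.247 TPM.

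In the group of chromatin factors and TRF1 regulators Tnks2, a tankyrase that modifies TRF1, was highest at 117 ± 4.77 TPM (453 ± 22.5 TPM in the kallisto-style tables), and Zbtb48, a repeat-binding zinc finger protein, lowest at 7.08 ± 1.13 TPM. Atrx, a chromatin remodeller, was at 60.25, 53.43 and 52.73 TPM and was called by the noise test, as was the tankyrase gene Tnks at 19.62, 16.61 and 16.78 TPM. Both were highest in replicate 1. Of the meiotic telomere genes Terb2 was highest at 8.88 ± 0.743 TPM, and Terb1 lowest at 0.16, 0.32 and 0 TPM. Zscan4 genes, which mark rare ES cells in a state of telomere extension, were low: Zscan4f was at 1.43, 2.96 and 3.33 TPM and Zscan4d at 0.647 ± 0.096 TPM. The Zscan4 copies are nearly identical, so how reads were split among them is uncertain.

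**Figure D5:**
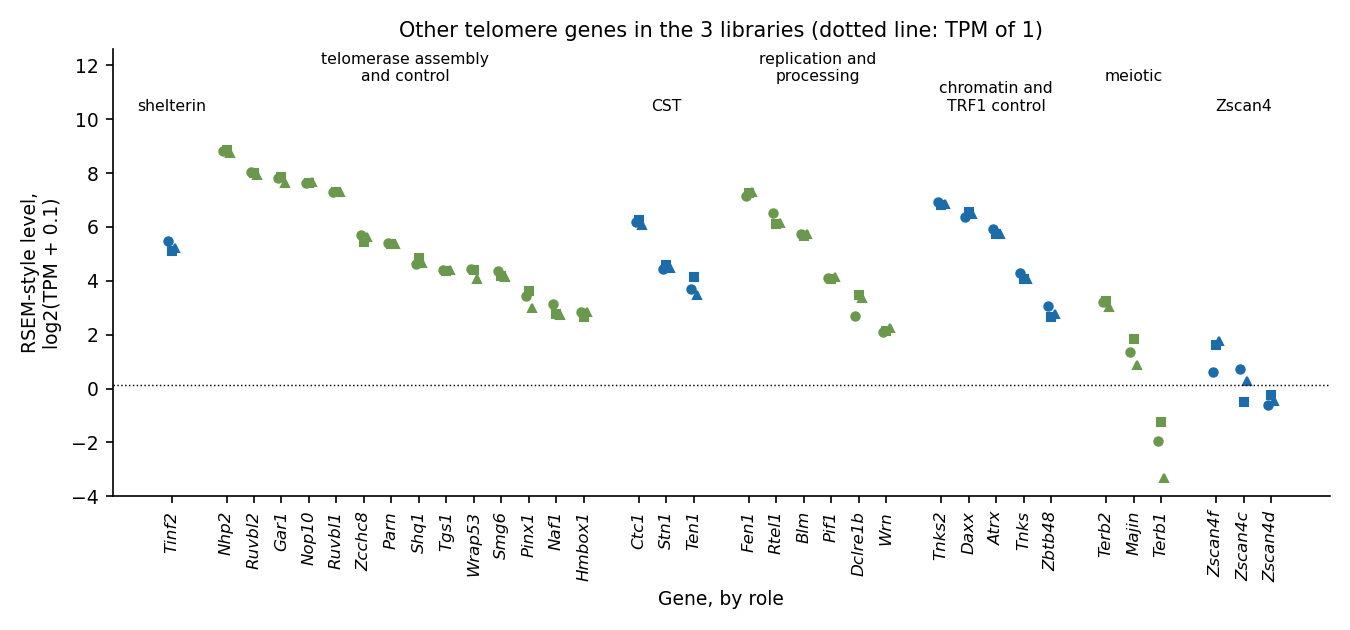
RSEM-style level, log2(TPM + 0.1), of the 35 other telomere genes (vertical axis) in each of the 3 libraries (circle, square and triangle for replicates 1, 2 and 3), grouped by role and ordered by mean (horizontal axis). Colours only separate neighbouring groups; Nhp2 is highest at 449 TPM and Terb1 lowest at 0.16 TPM on average.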

How the data were processed

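Total RNA of F121-9 cells was measured in 3 libraries. Per the labels and notes deposited, the files are on mm10 with GENCODE M21. The authors' gene and first transcript tables came from transcriptome alignments and the second transcript tables from read files; the quantifiers, their versions and the use of strand: not given in the sources used here. Estimated counts were deposited by the authors per gene or transcript without normalization. The deposited TPM values share 1 sum in every library, spike-ins included. The deposited FPKM values were used in an alternative only.

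Symbols were matched by gene ID to the M21 annotation, and sequences came from M21 transcripts. They were not compared with the Cast and 129 alleles of these cells, and the part of such alleles in the counts was not tested. Counts were rounded; rows of tRNA numbers and phiX (0.000133% to 0.000160% of counts) and 96 ERCC rows were kept out of library sizes. Genes were filtered with filterByExpr, scaled with TMM and fitted with edgeR 4.0.16 (intercept only); the noise test had 2 degrees of freedom. Transcripts were tested with limma 3.58.1 where each library had 1 TPM or more in the RSEM-style or the kallisto-style table. R was 4.3.3 and Python 3.11.15. Scripts were tested on simulated data. Alternatives were DESeq2 1.42.0 size factors, ERCC scaling, no filter, kallisto-style values, other thresholds and pseudocounts, FPKM and leaving out each library.

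The members and gene lists were chosen with earlier results of these data known. Named were all 10 members, their 2 leading transcripts and those called, Tinf2, the highest and lowest gene of each role group, and genes called by a count test. The alternative segments were chosen after the transcript values were seen.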

Additional observations from a re-analysis of the deposited data

How the results depend on the processing

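The count of expressed members was 6 to 9 under other thresholds and tables, and every level ratio kept its sign under the alternatives run. The noise test called 2 members under ERCC scaling (Rif1 and Tert) and 0 to 1 when each replicate was left out, with 0 without replicate 1. Over all genes it called 4644 under ERCC scaling, 2800 with kallisto-style counts and 27 of 13489 without replicate 1, against 1656. The dispersion test called 2 to 34 genes against 5, and 0 members throughout. Without a minimum difference 16 member transcripts and 17807 transcripts in all differed between the tables, against 5 and 5450. In kallisto-style tables, an alternative chosen after seeing the data, the segment share was 50.1% for Terf1, 13.9% for its coding transcripts, 79.0% for Rif1 and 72.8% for Dkc1. Among levels and coding shares of single members, kallisto-style values moved beyond 1 SD in 10 of 19 cases. Few counts limit Terc (0 to 2 per library) and Pot1b (13 to 22). No paired analysis was possible because there is 1 group, with no second group to pair it with; this does not concern comparisons within a library.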

Other observations

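In the kallisto-style tables the mean of Tnks2, at 453 ± 22.5 TPM (SD, n = 3), lay above that of Nhp2, at 407 ± 14.4 TPM, while the other tankyrase gene, Tnks, was at 14.9 ± 2.07 TPM there and 17.7 ± 1.69 TPM in the RSEM-style tables. Pou5f1, the ES marker that encodes OCT4, was at 610.50, 431.41 and 442.45 TPM in replicates 1, 2 and 3. Replicate 1 was thus the high library for Pou5f1 while it was the low one for Dkc1. Sox2 (312.57, 256.92 and 266.31 TPM) and Esrrb (121.71, 97.52 and 98.81 TPM) were also highest in replicate 1. The remaining ES markers were not: Zfp42 was at 425.62, 429.61 and 421.13 TPM, and Nanog at 499.88, 497.25 and 517.32 TPM. Of the 9 members with enough counts, 5 were higher and 4 lower in replicate 1 than in the others.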
